A study of Mus musculus with 8 samples.

Results

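Genes of mitosis and of the G2/M transition, the step at which a cell that has copied its DNA enters division, were followed in CD8 T cells taken from mouse tumours. The 40 genes are those of a list of known mitotic and G2/M genes, matched by symbol, out of the 24976 genes of the deposited count table. All 40 were in the table, and all 40 passed the low-count filter, which left 13073 genes for testing. With the PD1+Tim3- libraries alone 35 would have passed it, and with the PD1+Tim3+ libraries alone 39.

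Rag2-/- mice, hosts without T or B lymphocytes, carried subcutaneous tumours of B16-OVA, a melanoma line that expresses ovalbumin. CD8 T cells were transferred 10 days after the tumour cells, and tumour-infiltrating CD3e+CD8+ cells were sorted 10 days after transfer, each sample from 1 implanted mouse. The donors labelled dKO carried a Cd8-driven Cre (Cd8Cre), floxed alleles of both receptors (NR4a1flox/flox and NR4a2flox/flox) and the OT-I T cell receptor transgene (OT-ITg/+), and the other donors were WT. Whether OT-I was also present in WT donors is not in the labels, so genotype and receptor cannot be told apart, and the ages of the mice are not given in the labels. The groups, of 2 libraries each, were labelled dKO and WT in the PD1+Tim3+ gate, and labelled dKO and WT in the PD1+Tim3- gate. PD1 and Tim3 are inhibitory receptors, and their joint presence marks late stages of T cell exhaustion, while the gate without Tim3 holds less differentiated cells.

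Entry into mitosis is driven by the kinase CDK1 bound to cyclin A or cyclin B, which CDC25 phosphatases switch on. Aurora and Polo-like kinases then build the spindle, kinetochores attach chromosomes to it, the spindle checkpoint holds the anaphase-promoting complex in check until all are attached, and the central spindle guides the final cut between daughter cells. Most of these genes are transcribed in G2 and M by the B-MYB and FOXM1 complexes and kept off in resting cells by the DREAM complex, both of which act through a short promoter element called CHR. T cells that meet antigen divide fast, so the messenger RNAs of these genes are widely used as a readout of cycling T cells.

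The CHR element was searched as TTTGAA, on either strand (TTCAAA on the printed strand marks the other strand), or TTTAAA, which reads the same on both strands, in RefSeq promoter windows from 250 bases before to 50 after the start of each gene (GRCm38.p6). Windows were found for 34 of the 40 genes. The 6 others are Ccna2, Cdc25c, Foxm1, Aurkb, Tpx2 and Kif20a. The motif was in the windows of 27 of the 34 genes (79.4%), against 8261 of 27025 genes in the table (30.6%). Within 50 bases on each side of the start it was in 23 of 34 (67.6%), against 9.54% of all genes. TTTGAA was found for 24 genes (70.6%, against 20.2% of all genes) and TTTAAA in 9 (26.5%, against 14.9%). CCAAT, the box bound by NF-Y, was searched after the windows had been looked at and can share at most 1 end base with a CHR word. It was found on either strand for 26 genes (76.5%, against 41.1%), and at least 2 were found for 17 genes (50%, against 13.3%). The plot of motif positions shows where the CHR words lie. A match is a match of letters and does not show binding. The 80 bases before the start of the window's transcript are printed for the 9 genes with a CHR word in the last 50 of them and before the gene as the RefSeq gene table bounds it, and for Cks2, the gene that differed between the genotype labels, with the CHR words in capitals, 5′ to 3′ on the strand of the gene.
Cdk1, chr10:69352913-69352992, reverse strand: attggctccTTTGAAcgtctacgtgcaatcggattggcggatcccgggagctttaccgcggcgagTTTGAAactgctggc
Ccnb1, chr13:100786487-100786566, reverse strand: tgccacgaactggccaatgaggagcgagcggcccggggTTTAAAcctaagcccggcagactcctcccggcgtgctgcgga
Cks1b, chr3:89418292-89418371, reverse strand: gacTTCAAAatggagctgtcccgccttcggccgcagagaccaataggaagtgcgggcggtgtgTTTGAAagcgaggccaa
Cks2, chr13:51645152-51645231, forward strand: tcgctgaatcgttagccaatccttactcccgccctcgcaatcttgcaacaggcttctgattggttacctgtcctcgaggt
Plk1, chr7:122159355-122159434, forward strand: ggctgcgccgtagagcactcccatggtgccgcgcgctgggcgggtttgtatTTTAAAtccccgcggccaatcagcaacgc
Cdc20, chr4:118437344-118437423, reverse strand: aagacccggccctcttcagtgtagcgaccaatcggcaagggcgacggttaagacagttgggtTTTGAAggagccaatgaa
Ube2c, chr2:164769849-164769928, forward strand: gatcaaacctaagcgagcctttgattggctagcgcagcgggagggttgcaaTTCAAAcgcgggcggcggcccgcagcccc
Cenpa, chr5:30666806-30666885, forward strand: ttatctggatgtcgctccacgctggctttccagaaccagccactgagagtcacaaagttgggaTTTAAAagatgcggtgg
Kif11, chr19:37376302-37376381, forward strand: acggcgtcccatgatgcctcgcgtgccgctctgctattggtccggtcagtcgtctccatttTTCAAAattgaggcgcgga
Top2a, chr11:99024190-99024269, reverse strand: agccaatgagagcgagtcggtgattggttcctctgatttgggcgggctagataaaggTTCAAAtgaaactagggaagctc
Cdk1 and Cks1b hold 2 CHR words each in these 80 bases, the other 7 of the 9 genes hold 1, and Cks2 holds none. The gene table starts Cenpa and Top2a upstream of the window's start, so the last 9 bases printed for Cenpa and the last 10 for Top2a lie inside the gene.

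**Figure D1:**
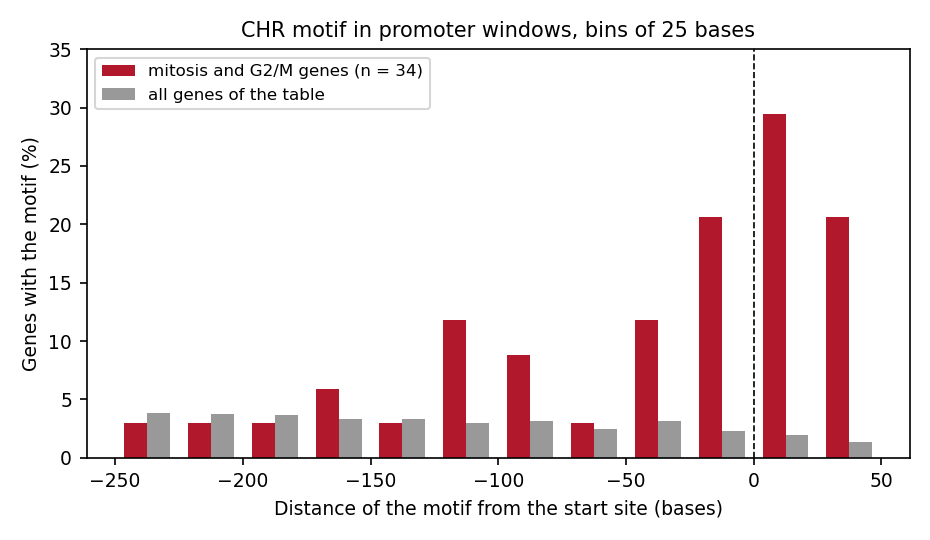
Percentage of genes (vertical axis) with a CHR word in each bin of 25 bases by distance from the annotated start (horizontal axis), for the 34 mitosis and G2/M genes with a window (red) and all genes of the promoter table (grey). In the bins next to the start the share was 20.6% and 29.4% of the 34 genes, against 2.31% and 1.93% of all genes.

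The shallowest library, replicate 2 of PD1+Tim3- labelled dKO, had 1944999 counts in all, and the deepest, WT PD1+Tim3+ replicate 2, had 13418762. The median count of the 40 genes was 12 in the shallowest library, where 18 of them had fewer than 10 counts, and 164 in the deepest. Nr4a1 did not stand lower in the libraries labelled dKO, at 1170 to 1490 CPM (reads per 1e6 of the library) against 789 to 979 in WT, and Nr4a2 stood at 929 to 984 CPM in those labelled dKO against 958 to 1030 in WT, so the genotype is given throughout as labelled. Havcr2, which encodes Tim3, averaged 57.4 ± 1.13 CPM in PD1+Tim3+ and 3.38 ± 0.333 CPM in PD1+Tim3- libraries labelled dKO, and 42.7 ± 1.27 CPM in WT PD1+Tim3+ and 2.92 ± 0.901 CPM in WT PD1+Tim3- libraries (SD, n = 2). The T cell identity genes summed to 3720 to 4830 CPM. Of markers of other cells, B16 melanoma markers summed to 18 to 22.2 CPM with Sox10 at 0 in 3 of the 4 groups, and B cell markers to 2.62 to 6.1 CPM with Ms4a1 at 0 in all libraries. Some moved with the groups. The 7 dendritic cell markers (4 tested) summed to 51.7 to 59.3 CPM in PD1+Tim3+ and 26.3 to 35.2 CPM in PD1+Tim3- libraries, with Clec9a at 0 in all PD1+Tim3- libraries. Most of that sum was Itgax, with PD1+Tim3+ against PD1+Tim3- means of 46.8 against 28.6 CPM for dKO and 46.7 against 23.5 CPM for WT. H2-Ab1 had 5.51 against 0.705 CPM for WT (adjusted p 0.00403) and 2.32 against 1.25 CPM for dKO (adjusted p 0.46). Xcr1 had 2.23 against 2.31 CPM for dKO and 2.13 against 1.65 for WT, and Zbtb46 1.95 against 1.77 for dKO and 0.925 against 0.841 for WT. In WT, PD1+Tim3+ against PD1+Tim3- libraries, the 4 NK cell markers (1 tested, Klrb1c, adjusted p 0.00799) summed to 12.7 to 14.6 against 5.97 to 7.26 CPM, with Ncr1 at 0 in the PD1+Tim3- libraries. The 8 fibroblast and endothelial markers (3 tested) summed to 26.3 to 28.4 against 37.8 to 43.9 CPM there, with Pecam1 lower (adjusted p 0.0361). Foxp3 averaged 2.42 against 0.317 CPM (adjusted p 0.0108), with Cd4 at 0 in the PD1+Tim3+ libraries, and Itgam 3.67 against 1.3 CPM (adjusted p 0.0442), while the macrophage and monocyte markers summed to 20.9 to 21.5 against 18.8 to 24 CPM. In libraries labelled dKO none of H2-Ab1, Klrb1c, Pecam1, Foxp3 and Itgam passed. The 6 erythroid markers summed to 33.3 to 109 CPM in PD1+Tim3+ labelled dKO, 6.43 to 34.2 in WT PD1+Tim3+ and 3.52 to 8.1 in PD1+Tim3- libraries. Ribosomal RNA (Rn45s and Rn18s) took 8.12% ± 0.336 of counts in PD1+Tim3+ labelled dKO, 6.99% ± 0.660 in WT PD1+Tim3+, 1.80% ± 0.277 in PD1+Tim3- labelled dKO and 2.36% ± 0.00432 in WT PD1+Tim3- (SD, n = 2).

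Summed over the 40 genes, mitotic messenger RNA was higher in PD1+Tim3+ than in PD1+Tim3- cells under both genotype labels, and highest in the PD1+Tim3+ cells labelled dKO. The sum was 958 and 964 CPM in the PD1+Tim3+ libraries labelled dKO and 712 and 779 CPM in WT PD1+Tim3+. In PD1+Tim3- cells it was 485 and 506 CPM in those labelled dKO and 456 and 479 CPM in WT. No PD1+Tim3+ library overlapped a PD1+Tim3- library, and the PD1+Tim3+ libraries labelled dKO lay above both of WT, while in PD1+Tim3- cells those labelled dKO lay just above those of WT. PD1+Tim3+ over PD1+Tim3- gave a ratio of 1.94 for cells labelled dKO and 1.6 for WT, and labelled dKO over WT gave 1.29 in PD1+Tim3+ and 1.06 in PD1+Tim3- cells. The 95% Poisson intervals, which cover counting error only, ran from 932 to 991 CPM over the 2 PD1+Tim3+ libraries labelled dKO, against 690 to 794 over the 2 of WT. In the PD1+Tim3- gate they ran from 467 to 539 CPM for dKO and from 440 to 499 for WT, and overlapped. The 5 chromosome structure genes, Mki67 and Top2a among them, summed to 337 and 368 CPM in PD1+Tim3+ labelled dKO and 263 and 293 in WT PD1+Tim3+, against 165 and 196 in PD1+Tim3- labelled dKO and 158 and 154 in WT PD1+Tim3-. In bulk RNA a smaller share of dividing cells and less of these messenger RNAs per cell cannot be told apart. The Itgax and ribosomal RNA values given above move with the PD1+Tim3+ gate under both labels. Those of H2-Ab1, Klrb1c, Foxp3, Itgam and Pecam1 do so in WT. The erythroid values do so for dKO, where the 4 tested genes passed. In WT 0 of these 4 passed, and the erythroid sums of the gates overlapped. The part of all these values in the result was not tested.

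**Figure D2:**
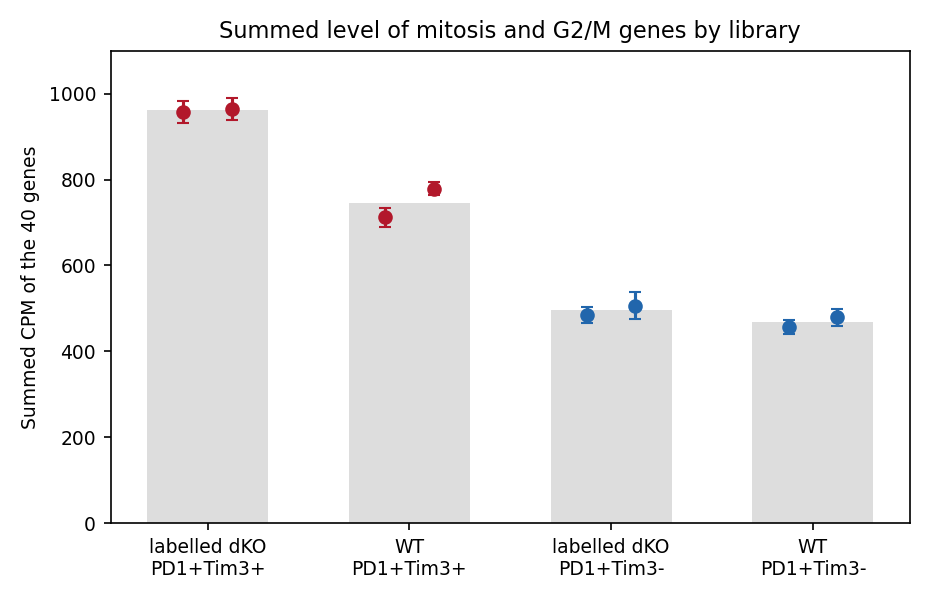
Summed CPM of the 40 genes (vertical axis, from 0) in each library, with points at 958, 964, 712, 779, 485, 506, 456 and 479 CPM from left to right, 95% Poisson intervals as bars on the points and grey columns at the group means of 961, 746, 496 and 467 CPM. The PD1+Tim3+ libraries lie above the PD1+Tim3- libraries under both genotype labels.

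**Figure D3:**
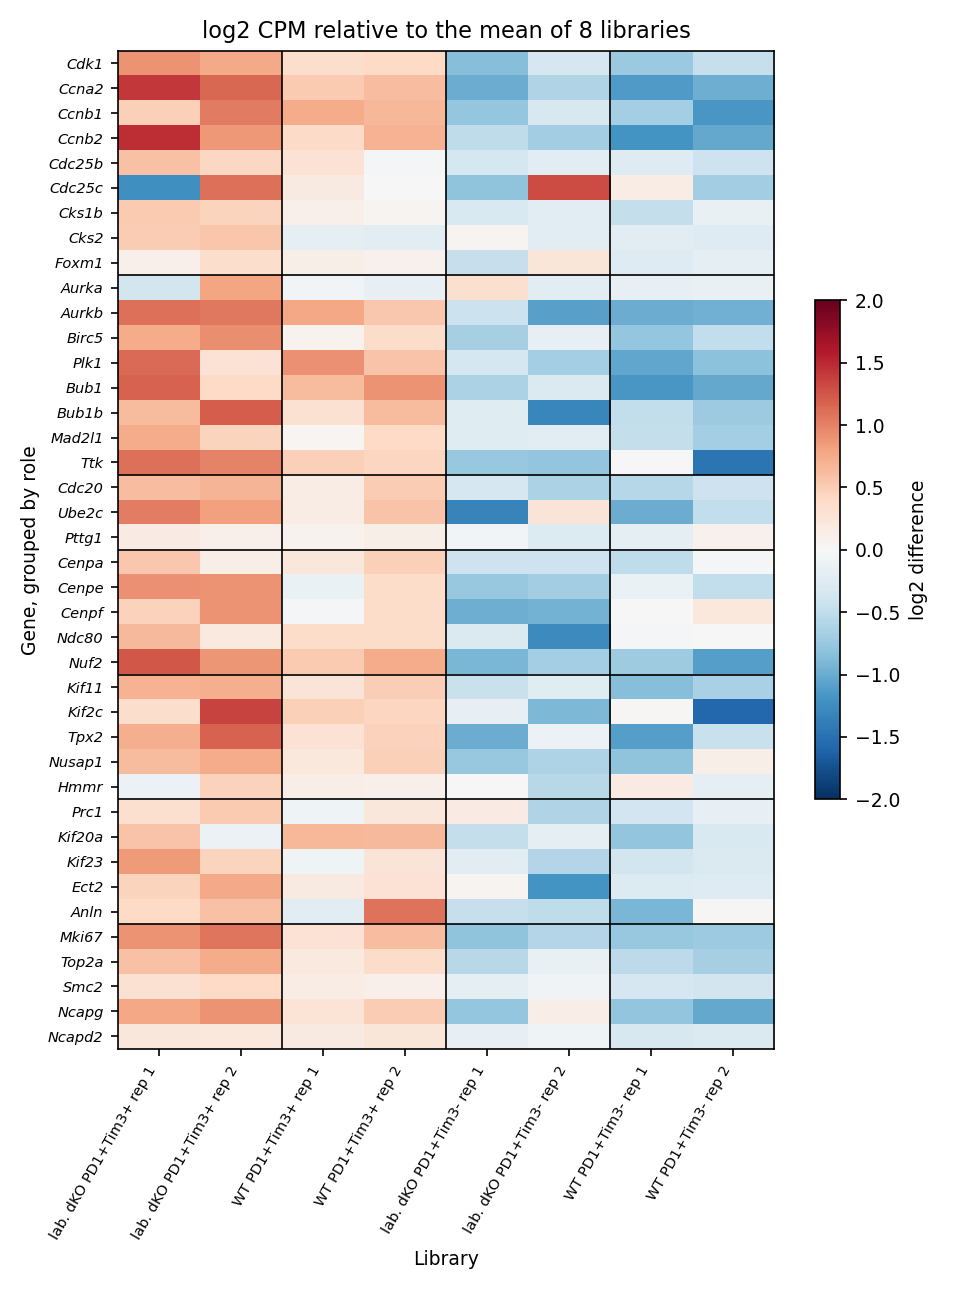
Level of each gene (rows, grouped by role and divided by lines) in each of the 8 libraries (columns) as log2 CPM with a prior count of 2, minus the mean of the 8 libraries (red higher, blue lower). The 4 PD1+Tim3+ libraries on the left are mostly red and the 4 PD1+Tim3- libraries mostly blue, while Cdc25c, Aurka and Hmmr show no such order.

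The comparison of PD1+Tim3+ with PD1+Tim3- cells asks how far division genes differ between the gates within a genotype label. In cells labelled dKO 26 of 40 genes (65.0%) were higher in PD1+Tim3+ at a Benjamini-Hochberg adjusted p under 0.05 (edgeR quasi-likelihood test over all genes) and 0 lower, where 5.21% of all tested genes were higher, 4.72% lower and 9.93% passed in either direction. In WT 22 of 40 (55.0%) were higher and 0 lower, where 8.25% of all tested genes were higher, 8.76% lower and 17% passed in either direction. All 40 fold changes were positive under both labels (51% of all tested genes for dKO and 51.2% for WT), with a median log2 fold change of 1.13 for dKO and 0.90 for WT, beside 0.01 and 0.01 over all genes tested. With the PD1+Tim3- libraries alone 35 of the 40 would have passed the low-count filter. For the others the filter itself could favour a positive value, and they stay in the counts and medians given here. Both PD1+Tim3+ libraries lay above both PD1+Tim3- libraries for 36 genes in those labelled dKO (26.2% of all genes did so) and for 32 in WT (32.7% of all genes). The 2 comparisons share no library, and 19 genes passed in both, 7 in cells labelled dKO alone, 3 in WT alone and 11 in neither. A gene that passed under 1 label alone is not thereby shown to differ between the labels, which the interaction tests. Fewer of the 40 genes, and fewer of all tested genes, passed for dKO without either PD1+Tim3- library labelled dKO. The same held in WT without replicate 1 of PD1+Tim3- or without either PD1+Tim3+ library. The median of the 40 for dKO was 1.15 without replicate 1 and 1.22 without replicate 2 of PD1+Tim3-. In WT it was 0.85 without replicate 1 of PD1+Tim3-, 1.01 without replicate 1 and 0.66 without replicate 2 of PD1+Tim3+. Ccna2, Aurkb and Mki67 passed in every fit with a library left out under both labels, and Ccnb2, Kif11 and Top2a did so in WT.

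**Figure D4:**
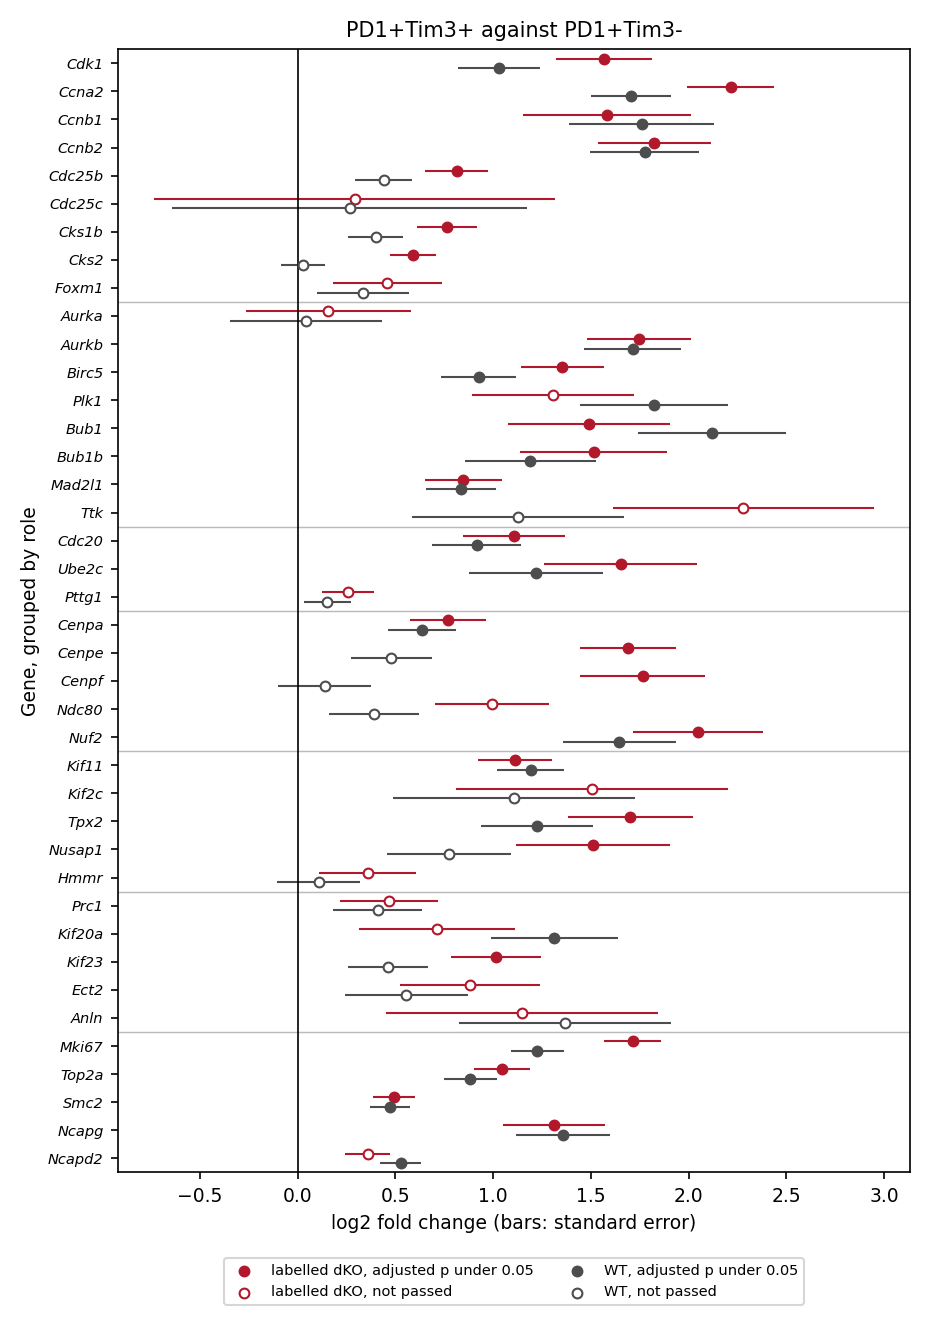
log2 fold change of PD1+Tim3+ against PD1+Tim3- (horizontal axis, bars are standard errors) for the 40 genes (rows, grouped by role), in libraries labelled dKO (red) and WT (dark grey), filled where the adjusted p was under 0.05. All points lie right of 0, with 26 filled for dKO and 22 for WT.

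Of the 9 genes of the CDK1 switch 7 were called higher in the PD1+Tim3+ gate for dKO and 4 for WT. Differences are given for these and all later genes as log2 fold changes with their standard errors (SE). Ccna2, which encodes cyclin A2, the partner of CDK1 as cells reach mitosis, had 26.2 and 21.8 CPM in PD1+Tim3+ libraries labelled dKO and 14.1 and 15 in WT PD1+Tim3+, against 4.71 and 6.3 in PD1+Tim3- labelled dKO and 4.27 and 4.77 in WT PD1+Tim3-. Its log2 fold change was 2.21 ± 0.22 (SE, adjusted p 0.000203) for cells labelled dKO and 1.70 ± 0.20 (adjusted p 0.000744) for WT, and no PD1+Tim3+ library overlapped a PD1+Tim3- one. The gene lies on chromosome 3 from 36564865 to 36573038 (GRCm38). Cdk1, the kinase itself, had 15.3 and 13.9 CPM in PD1+Tim3+ libraries labelled dKO and 10.4 and 10.7 in WT PD1+Tim3+, against 4.34 and 6.3 in PD1+Tim3- labelled dKO and 4.69 and 5.8 in WT PD1+Tim3-. PD1+Tim3+ cells were again above all PD1+Tim3- libraries, at 1.57 ± 0.25 (adjusted p 0.00411) for dKO and 1.03 ± 0.21 (adjusted p 0.00818) for WT. Ccnb1, which encodes cyclin B1, had 3.91 and 5.91 CPM in PD1+Tim3+ libraries labelled dKO and 4.76 and 4.5 in WT PD1+Tim3+, against 1.45 and 2.1 in PD1+Tim3- labelled dKO and 1.56 and 1.04 in WT PD1+Tim3-. Ccnb2, for cyclin B2, had 22.5 and 14.6 CPM in PD1+Tim3+ libraries labelled dKO and 10.4 and 12.9 in WT PD1+Tim3+, against 5.43 and 4.72 in PD1+Tim3- labelled dKO and 3.27 and 3.73 in WT PD1+Tim3-. Both B cyclins rose under both labels with no overlap, Ccnb1 at 1.58 ± 0.43 (adjusted p 0.0412) for dKO and 1.76 ± 0.37 (adjusted p 0.00918) for WT, and Ccnb2 at 1.82 ± 0.29 (adjusted p 0.0043) for dKO and 1.78 ± 0.28 (adjusted p 0.00294) for WT.

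The phosphatase that switches CDK1 on, and the small CKS proteins that dock CDK complexes to their substrates, passed in cells labelled dKO alone. Cdc25b had 43.4 and 38.6 CPM in PD1+Tim3+ libraries labelled dKO and 35.4 and 28 in WT PD1+Tim3+, against 22.6 and 24.7 in PD1+Tim3- labelled dKO and 24.2 and 21.6 in WT PD1+Tim3-. The PD1+Tim3+ libraries were higher under both labels without overlap, at 0.81 ± 0.16 (adjusted p 0.0129) for dKO and 0.44 ± 0.15 (adjusted p 0.0618) for WT. Cks1b had 33.5 and 31.8 CPM in PD1+Tim3+ libraries labelled dKO and 25 and 24.1 in WT PD1+Tim3+, against 18.8 and 19.9 in PD1+Tim3- labelled dKO and 16.6 and 20.9 in WT PD1+Tim3-. It gave 0.77 ± 0.15 (adjusted p 0.014) for dKO and 0.40 ± 0.14 (adjusted p 0.0746) for WT. Cks2 had 75.6 and 78.5 CPM in PD1+Tim3+ libraries labelled dKO and 46.9 and 45.1 in WT PD1+Tim3+, against 55 and 45.1 in PD1+Tim3- labelled dKO and 45.5 and 44.6 in WT PD1+Tim3-. The 2 PD1+Tim3+ libraries labelled dKO stood apart, while the other 6 lay between 44.6 and 55 CPM, so that the population difference was 0.59 ± 0.12 (adjusted p 0.0129) for dKO and 0.03 ± 0.11 (adjusted p 0.903) for WT. Cdc25c, a related phosphatase, was read too rarely to order the groups, with 1 to 12 counts a library, and Foxm1, the transcription factor gene, stood at 0.46 ± 0.28 (adjusted p 0.354) for dKO and 0.33 ± 0.24 (adjusted p 0.368) for WT. Cks1b and Cks2 have the shortest transcripts of the 40, at 849 and 692 bases, and the 901 tested genes under 1000 bases had a median of 0.16 for dKO and -0.24 for WT in this comparison, whose part in these values was not tested.

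Of the 8 mitotic kinase and spindle checkpoint genes 5 rose for dKO and 6 for WT. Aurkb encodes the kinase of the chromosomal passenger complex, which corrects faulty attachments. It had 13.2 and 12.7 CPM in PD1+Tim3+ libraries labelled dKO and 10.4 and 8.85 in WT PD1+Tim3+, against 4.34 and 2.62 in PD1+Tim3- labelled dKO and 2.84 and 2.9 in WT PD1+Tim3-. Its fold changes were near each other, 1.75 ± 0.27 (adjusted p 0.00351) for dKO and 1.71 ± 0.25 (adjusted p 0.00207) for WT. Birc5, for survivin in the same complex, had 25.9 and 29.6 CPM in PD1+Tim3+ libraries labelled dKO and 16.2 and 20 in WT PD1+Tim3+, against 9.59 and 13.6 in PD1+Tim3- labelled dKO and 8.82 and 10.8 in WT PD1+Tim3-. It rose by 1.35 ± 0.21 (adjusted p 0.00411) for dKO and 0.93 ± 0.19 (adjusted p 0.00854) for WT. Mad2l1, a checkpoint protein that inhibits CDC20, had 27.9 and 22.5 CPM in PD1+Tim3+ libraries labelled dKO and 17 and 21.8 in WT PD1+Tim3+, against 13.9 and 14.2 in PD1+Tim3- labelled dKO and 11.8 and 10.2 in WT PD1+Tim3-. The groups did not overlap, at 0.85 ± 0.20 (adjusted p 0.0246) for dKO and 0.84 ± 0.18 (adjusted p 0.0102) for WT.

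Bub1, a checkpoint kinase at the kinetochore, had 7.82 and 4.43 CPM in PD1+Tim3+ libraries labelled dKO and 5.27 and 6.36 in WT PD1+Tim3+, against 1.99 and 2.62 in PD1+Tim3- labelled dKO and 1.28 and 1.45 in WT PD1+Tim3-. Bub1b, for the checkpoint protein BUBR1, had 6.89 and 10.5 CPM in PD1+Tim3+ libraries labelled dKO and 5.44 and 6.93 in WT PD1+Tim3+, against 3.62 and 1.57 in PD1+Tim3- labelled dKO and 2.99 and 2.49 in WT PD1+Tim3-. Both rose under both labels, Bub1 at 1.49 ± 0.41 (adjusted p 0.0451) for dKO and 2.12 ± 0.38 (adjusted p 0.00474) for WT, and Bub1b at 1.51 ± 0.38 (adjusted p 0.0314) for dKO and 1.19 ± 0.33 (adjusted p 0.0324) for WT. Plk1, the Polo-like kinase of mitotic entry and spindle assembly, had 8.19 and 4.43 CPM in PD1+Tim3+ libraries labelled dKO and 6.97 and 5.43 in WT PD1+Tim3+, against 2.71 and 2.1 in PD1+Tim3- labelled dKO and 1.56 and 1.87 in WT PD1+Tim3-. It rose in WT at 1.82 ± 0.38 (adjusted p 0.00864), and its value for dKO was 1.31 ± 0.42 (adjusted p 0.0757), where replicate 2 of PD1+Tim3+ had 4.43 CPM and replicate 1 8.19. Aurka, the spindle pole kinase, overlapped between populations under both labels, at 0.16 ± 0.42 (adjusted p 0.877) for dKO and 0.04 ± 0.39 (adjusted p 0.958) for WT. Ttk, the kinase that starts the checkpoint, stood at 2.28 ± 0.67 (adjusted p 0.0546) for dKO and 1.13 ± 0.54 (adjusted p 0.182) for WT, from levels of 0.207 to 2.79 CPM.

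The anaphase-promoting complex marks securin and B cyclins for destruction. Cdc20, its activator, had 10.4 and 10.9 CPM in PD1+Tim3+ libraries labelled dKO and 7.48 and 9.64 in WT PD1+Tim3+, against 5.25 and 4.2 in PD1+Tim3- labelled dKO and 4.41 and 4.98 in WT PD1+Tim3-. Ube2c, the ubiquitin-conjugating enzyme that works with it, had 17.1 and 14.8 CPM in PD1+Tim3+ libraries labelled dKO and 9.18 and 12.4 in WT PD1+Tim3+, against 3.08 and 9.97 in PD1+Tim3- labelled dKO and 3.98 and 5.8 in WT PD1+Tim3-. Both rose under both labels, Cdc20 at 1.11 ± 0.26 (adjusted p 0.0262) for dKO and 0.92 ± 0.23 (adjusted p 0.0188) for WT, and Ube2c at 1.65 ± 0.39 (adjusted p 0.0261) for dKO and 1.22 ± 0.34 (adjusted p 0.0328) for WT. The 2 PD1+Tim3- libraries labelled dKO stood far apart for Ube2c, at 3.08 and 9.97 CPM, yet below all PD1+Tim3+ libraries but 1. Pttg1, which encodes securin, was near level in all groups, between 36.2 and 48.8 CPM, with 0.26 ± 0.13 (adjusted p 0.271) for dKO and 0.15 ± 0.12 (adjusted p 0.416) for WT.

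Of the 5 centromere and kinetochore genes 4 rose for dKO and 2 for WT. Cenpa, the histone H3 variant that marks centromeres, had 61.1 and 46 CPM in PD1+Tim3+ libraries labelled dKO and 49 and 58.6 in WT PD1+Tim3+, against 31.3 and 31.5 in PD1+Tim3- labelled dKO and 29.4 and 41.3 in WT PD1+Tim3-. Nuf2, a subunit of the NDC80 complex that grips microtubules, had 10.8 and 8.31 CPM in PD1+Tim3+ libraries labelled dKO and 6.46 and 7.57 in WT PD1+Tim3+, against 2.17 and 2.62 in PD1+Tim3- labelled dKO and 2.56 and 1.87 in WT PD1+Tim3-. Both rose under both labels, Cenpa at 0.77 ± 0.19 (adjusted p 0.0329) for dKO and 0.64 ± 0.17 (adjusted p 0.0285) for WT, and Nuf2 at 2.05 ± 0.33 (adjusted p 0.00498) for dKO and 1.65 ± 0.29 (adjusted p 0.00442) for WT. Cenpe, a kinetochore motor that moves chromosomes to the spindle middle, had 21.4 and 21.2 CPM in PD1+Tim3+ libraries labelled dKO and 10.2 and 14.6 in WT PD1+Tim3+, against 6.52 and 6.82 in PD1+Tim3- labelled dKO and 10.2 and 7.88 in WT PD1+Tim3-. It rose among cells labelled dKO at 1.69 ± 0.25 (adjusted p 0.00272), while the WT populations touched at 10.2 CPM, 0.48 ± 0.21 (adjusted p 0.139). Cenpf, a large kinetochore protein, had 8.94 and 12.2 CPM in PD1+Tim3+ libraries labelled dKO and 6.29 and 8.36 in WT PD1+Tim3+, against 3.08 and 3.15 in PD1+Tim3- labelled dKO and 6.4 and 7.46 in WT PD1+Tim3-. For dKO the populations did not overlap, 1.76 ± 0.32 (adjusted p 0.00872), and in WT the populations overlapped, 0.14 ± 0.24 (adjusted p 0.726). Ndc80 itself had 12.8 and 9.24 CPM in PD1+Tim3+ libraries labelled dKO and 10.5 and 10.5 in WT PD1+Tim3+, against 6.52 and 3.15 in PD1+Tim3- labelled dKO and 7.96 and 8.08 in WT PD1+Tim3-. Its PD1+Tim3+ libraries lay above the PD1+Tim3- ones under both labels without passing, 0.99 ± 0.29 (adjusted p 0.0554) for dKO and 0.39 ± 0.23 (adjusted p 0.277) for WT.

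Spindle motors and microtubule proteins gave 3 of 5 genes higher for dKO and 2 for WT. Kif11, the motor that pushes spindle poles apart, had 21.4 and 22 CPM in PD1+Tim3+ libraries labelled dKO and 15.8 and 18.6 in WT PD1+Tim3+, against 9.59 and 11 in PD1+Tim3- labelled dKO and 7.11 and 8.29 in WT PD1+Tim3-. Its values were 1.11 ± 0.19 (adjusted p 0.0063) for dKO and 1.19 ± 0.17 (adjusted p 0.00207) for WT, with no overlap. Tpx2, which activates Aurora A on the spindle, had 14.3 and 19.8 CPM in PD1+Tim3+ libraries labelled dKO and 10.5 and 11.9 in WT PD1+Tim3+, against 4.16 and 7.87 in PD1+Tim3- labelled dKO and 3.84 and 6.22 in WT PD1+Tim3-. Nusap1, which bundles spindle microtubules, had 6.7 and 7.2 CPM in PD1+Tim3+ libraries labelled dKO and 4.93 and 6 in WT PD1+Tim3+, against 2.35 and 2.62 in PD1+Tim3- labelled dKO and 2.27 and 4.56 in WT PD1+Tim3-. Tpx2 rose under both labels, 1.70 ± 0.32 (adjusted p 0.0103) for dKO and 1.23 ± 0.29 (adjusted p 0.0139) for WT, and Nusap1 for dKO, 1.51 ± 0.39 (adjusted p 0.0361), while its WT value was 0.78 ± 0.32 (adjusted p 0.12). Kif2c, a microtubule-shortening motor read at 0.207 to 3.69 CPM, stood at 1.51 ± 0.70 (adjusted p 0.219) for dKO and 1.11 ± 0.62 (adjusted p 0.25) for WT. Hmmr, a spindle assembly factor that is also a hyaluronan receptor, overlapped between populations, 0.36 ± 0.25 (adjusted p 0.426) for dKO and 0.11 ± 0.21 (adjusted p 0.765) for WT.

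Of the 5 genes of the central spindle and of cytokinesis 1 rose under each label, and not the same one. Kif23, the motor of the centralspindlin complex, had 21.8 and 16.4 CPM in PD1+Tim3+ libraries labelled dKO and 11.2 and 14.3 in WT PD1+Tim3+, against 10.1 and 7.87 in PD1+Tim3- labelled dKO and 9.24 and 9.74 in WT PD1+Tim3-. It rose for dKO, 1.01 ± 0.23 (adjusted p 0.0223), and had 0.46 ± 0.20 (adjusted p 0.145) for WT. Kif20a, a motor that brings Aurora B to the central spindle, had 5.58 and 3.33 CPM in PD1+Tim3+ libraries labelled dKO and 5.95 and 5.93 in WT PD1+Tim3+, against 2.53 and 3.15 in PD1+Tim3- labelled dKO and 1.99 and 2.9 in WT PD1+Tim3-. It rose for WT, 1.31 ± 0.33 (adjusted p 0.0187), and had 0.71 ± 0.40 (adjusted p 0.314) for dKO. Prc1, which bundles the central spindle, Ect2, which switches on RhoA at the cleavage furrow, and Anln, the scaffold anillin, passed under neither label. Their values were 0.47 ± 0.25 (adjusted p 0.296), 0.88 ± 0.36 (adjusted p 0.161) and 1.15 ± 0.70 (adjusted p 0.355) for dKO and 0.41 ± 0.23 (adjusted p 0.247), 0.56 ± 0.31 (adjusted p 0.255) and 1.37 ± 0.54 (adjusted p 0.11) for WT.

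All 5 chromosome structure genes rose in WT and 4 of them for dKO. Mki67, which encodes Ki-67, a proliferation marker that coats mitotic chromosomes, had 113 and 127 CPM in PD1+Tim3+ libraries labelled dKO and 74.5 and 93.3 in WT PD1+Tim3+, against 34.4 and 40.4 in PD1+Tim3- labelled dKO and 35.5 and 36.7 in WT PD1+Tim3-. The lowest PD1+Tim3+ library was at 74.5 CPM and the highest PD1+Tim3- one at 40.4, and the fold changes were 1.71 ± 0.15 (adjusted p 5.88e-05) for dKO and 1.23 ± 0.14 (adjusted p 0.000487) for WT. Mki67 lies on chromosome 7 from 135689784 to 135716450. Top2a, the topoisomerase that untangles sister chromatids, had 96.1 and 107 CPM in PD1+Tim3+ libraries labelled dKO and 73.6 and 82.8 in WT PD1+Tim3+, against 43.6 and 57.7 in PD1+Tim3- labelled dKO and 44.4 and 40.4 in WT PD1+Tim3-. It rose under both labels, 1.04 ± 0.14 (adjusted p 0.0018) for dKO and 0.88 ± 0.13 (adjusted p 0.00253) for WT.

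Smc2, the ATPase core of condensin, had 69.1 and 73.7 CPM in PD1+Tim3+ libraries labelled dKO and 62.1 and 59.7 in WT PD1+Tim3+, against 49.2 and 53 in PD1+Tim3- labelled dKO and 44.2 and 43.3 in WT PD1+Tim3-. Ncapg, a condensin I subunit, had 17.5 and 19 CPM in PD1+Tim3+ libraries labelled dKO and 12.2 and 14.5 in WT PD1+Tim3+, against 5.79 and 11 in PD1+Tim3- labelled dKO and 5.69 and 4.77 in WT PD1+Tim3-. Smc2 rose at 0.49 ± 0.11 (adjusted p 0.0196) for dKO and 0.47 ± 0.10 (adjusted p 0.00978) for WT, less than Ncapg at 1.31 ± 0.26 (adjusted p 0.0133) for dKO and 1.36 ± 0.24 (adjusted p 0.00464) for WT, whose difference between genes was not tested. Ncapd2, another condensin I subunit, had 41.9 and 41.4 CPM in PD1+Tim3+ libraries labelled dKO and 40.6 and 42.4 in WT PD1+Tim3+, against 31.9 and 33.6 in PD1+Tim3- labelled dKO and 28.6 and 29.2 in WT PD1+Tim3-. It passed in WT, 0.53 ± 0.11 (adjusted p 0.0074), and not for dKO, 0.36 ± 0.12 (adjusted p 0.081), although neither pair of populations overlapped.

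In PD1+Tim3+ cells the comparison of donors labelled dKO with WT donors sets division genes side by side between the genotype labels. Nr4a1 and Nr4a2 counts by gene did not show the labelled loss in these libraries. Such counts cannot tell whether the floxed exons were deleted. 1 of the 40 genes passed, Cks2, where 0.26% of all tested genes were higher and 0.627% passed in either direction. Cks2 had 75.6 and 78.5 CPM in the libraries labelled dKO, against 46.9 and 45.1 CPM in WT, a log2 fold change of 0.75 ± 0.11 (adjusted p 0.0131). It lies on chromosome 13 from 51645232 to 51650662. Without WT PD1+Tim3+ replicate 1 the value was 0.77, and without replicate 2 it was 0.71. Cks2 did not pass in either of these fits, in which fewer of all tested genes passed too. Where both libraries of each PD1+Tim3+ group were kept, its adjusted p ran between 2.59e-05 in the fit of all genes with no low-count filter and 0.0445 with the replicate block. Genes with transcripts under 1000 bases had a median log2 difference of 0.23 in this comparison, and the part of transcript length in the value of Cks2 was not tested.

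The other genes leaned the same way without passing. Of the 40, 37 had a positive log2 fold change, where 51% of all tested genes did, and their median was 0.40, beside 0.01 over all genes. Both libraries labelled dKO lay above both of WT for 25 genes (20.7% of all tested genes did so), below for 1, Kif20a, and the groups overlapped for 14. At an unadjusted p under 0.05 there were 14, all higher, where 7.1% of all tested genes were higher at that level. The median was 0.48 without WT PD1+Tim3+ replicate 2 and 0.29 without replicate 2 of PD1+Tim3+ labelled dKO.

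After Cks2 the highest fold changes were those of Cenpe, 0.73 ± 0.19 (adjusted p 0.134), and Ccna2, 0.71 ± 0.16 (adjusted p 0.0929). Cenpe had 21.4 and 21.2 CPM in PD1+Tim3+ libraries labelled dKO, against 10.2 and 14.6 CPM in WT. Ccna2 had 26.2 and 21.8 CPM for dKO, against 14.1 and 15 CPM for WT. Mki67, at 113 and 127 CPM for dKO against 74.5 and 93.3 CPM for WT, had 0.51 ± 0.13 (adjusted p 0.129). The groups did not overlap for any of these 3. The lowest were Kif20a, -0.41 ± 0.29 (adjusted p 0.641), Anln, -0.26 ± 0.47 (adjusted p 0.902), and Cenpa, -0.02 ± 0.17 (adjusted p 0.994). Kif20a was the gene for which both libraries labelled dKO, at 5.58 and 3.33 CPM, lay below both of WT, at 5.95 and 5.93 CPM. Anln had 2.23 and 2.59 CPM in libraries labelled dKO, between the 1.36 and 3.78 CPM of the WT libraries. Cenpa, at 61.1 and 46 CPM for dKO and 49 and 58.6 CPM for WT, overlapped too. Both signs turn with 1 library left out, to 0.80 for Anln and 0.12 for Cenpa without WT PD1+Tim3+ replicate 2, and to 0.17 for Cenpa without replicate 2 of PD1+Tim3+ labelled dKO.

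By role, medians of labelled dKO against WT in PD1+Tim3+ cells were 0.46 for kinases and checkpoint, 0.42 for kinetochore, 0.41 for the CDK1 switch, 0.37 for chromosome structure, 0.32 for spindle motors and for the central spindle, and 0.28 for the anaphase-promoting complex. Genes with a CHR word within 50 bases of the start had a median of 0.38 (23 genes) and those without one 0.39 (11 genes). In the same groups the erythroid marker sums overlapped, at 33.3 to 109 CPM for dKO and 6.43 to 34.2 CPM for WT. Their 4 tested genes had log2 fold changes of 1.90 to 2.69, and 0 passed (adjusted p 0.0656 to 0.331). The 4 NK cell markers summed to 7.45 to 9.24 CPM for dKO, with Ncr1 and Klra4 at 0. In WT they summed to 12.7 to 14.6 CPM, without overlap, and Klrb1c, the tested one, did not pass (adjusted p 0.18). The part of the erythroid and NK cell markers in the medians given here was not tested.

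**Figure D5:**
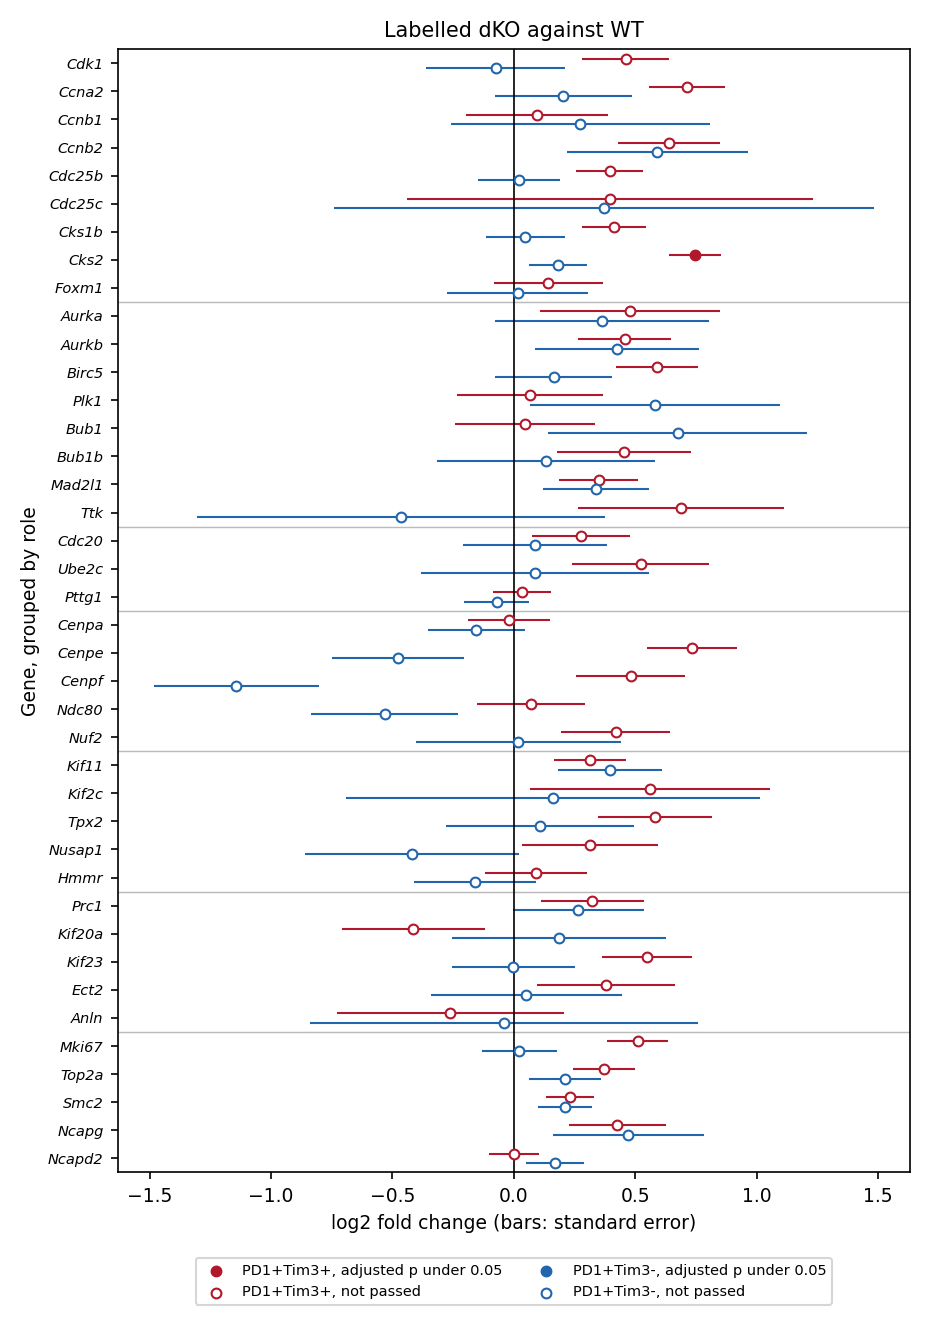
log2 fold change of libraries labelled dKO against WT (horizontal axis, bars are standard errors) for the 40 genes (rows, grouped by role), in PD1+Tim3+ (red) and PD1+Tim3- cells (blue), filled where the adjusted p was under 0.05. Most red points lie right of 0, with Cks2 the filled one, and the blue points lie on both sides.

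In PD1+Tim3- cells 0 of the 40 genes passed by edgeR between donors labelled dKO and WT donors, where 0.0459% of all tested genes passed. DESeq2 and limma-voom also gave 0 of the 40, where they called 6 and 0 over all genes. At an unadjusted p under 0.05 there was 1, Cenpf (8.27% of all tested genes). A positive log2 fold change was found for 29 of 40 (49.1% of all tested genes), and the median was 0.12, beside -0.01 over all genes. Without replicate 2 of PD1+Tim3- labelled dKO, the shallowest library, the median was 0.05. Libraries labelled dKO lay above WT for 8 of the 40 genes, a share near that of all tested genes (20.3%). They lay below WT for 3, a smaller share than that of all tested genes (21%), and overlapped for 29. The 3 below are the kinetochore genes Cenpf, Ndc80 and Cenpe, whose role had a median of -0.48. Cenpf had 3.08 and 3.15 CPM in PD1+Tim3- libraries labelled dKO, against 6.4 and 7.46 CPM in WT, -1.14 ± 0.34 (adjusted p 0.456). Ndc80 had 6.52 and 3.15 CPM for dKO, against 7.96 and 8.08 CPM for WT, -0.53 ± 0.30 (adjusted p 0.692). Cenpe had 6.52 and 6.82 CPM for dKO, against 10.2 and 7.88 CPM for WT, -0.48 ± 0.27 (adjusted p 0.693). None of the 3 passed. The highest values were those of Bub1, 0.67 ± 0.53 (adjusted p 0.782), Ccnb2, 0.59 ± 0.37 (adjusted p 0.718), and Plk1, 0.58 ± 0.52 (adjusted p 0.808). For these 3 both libraries labelled dKO lay above both of WT, from counts as low as 4 in the shallow library.

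The interaction, the PD1+Tim3+ against PD1+Tim3- difference of cells labelled dKO minus that of WT cells, tests whether the labels differ in how far division genes separate the gates. It gave 0 of 40 genes and 0% of all tested genes by edgeR. DESeq2 gave 0 of 40 where it called 109 over all genes, and limma-voom gave 0 of 40 where it called 0. At an unadjusted p under 0.05 there were 4, all with a larger difference among cells labelled dKO (5.87% of all tested genes). They were Cenpf, 1.62 ± 0.41 (adjusted p 0.223), Cenpe, 1.21 ± 0.33 (adjusted p 0.241), Cks2, 0.56 ± 0.16 (adjusted p 0.27), and Mki67, 0.49 ± 0.20 (adjusted p 0.446). For the 901 tested genes with transcripts under 1000 bases the median interaction was 0.34. The part of transcript length in the interaction of Cks2 was not tested. Of the 40 values 32 were positive (50.4% of all tested genes) and the median was 0.22. Cenpf and Cenpe passed without the low-count filter, a fit in which 331 genes passed in all. Without replicate 1 of PD1+Tim3+ labelled dKO the median was 0.31. The 2 genotype comparisons and the 2 population comparisons use the same 8 libraries, so a low dKO PD1+Tim3- level enters both the genotype value and the interaction of Cenpf and Cenpe.

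Neighbouring gene lists were read from the same fit. Of 70 other mitotic genes 65 were tested, and PD1+Tim3+ cells were higher for 24 and lower for 2 under each label, with medians of 0.87 for dKO and 0.58 for WT. Of all tested genes 5.21% were higher and 4.72% lower for dKO, and 8.25% higher and 8.76% lower for WT. The highest were Depdc1a, a mitotic regulator, at 2.64 ± 0.55 (adjusted p 0.0163) for dKO and 2.09 ± 0.42 (adjusted p 0.00722) for WT, Cdca3, which helps start mitosis, at 2.14 ± 0.37 (adjusted p 0.00698) for dKO, and the kinase gene Pbk at 2.98 ± 0.84 (adjusted p 0.0324) for WT, a value that rests on few counts (1.32 against 0.142 CPM). The 2 lower ones under both labels were Kif18a, a motor that dampens chromosome movement, -1.07 ± 0.28 (adjusted p 0.0358) for dKO and -1.27 ± 0.28 (adjusted p 0.0103) for WT, and Smc4, the condensin partner of SMC2, -0.41 ± 0.11 (adjusted p 0.0452) for dKO and -0.74 ± 0.11 (adjusted p 0.00252) for WT. Kif18a averaged 374 ± 103 CPM in PD1+Tim3+ and 785 ± 130 CPM in PD1+Tim3- libraries labelled dKO, and 371 ± 33.0 CPM in WT PD1+Tim3+ and 894 ± 407 CPM in WT PD1+Tim3- libraries (SD, n = 2). Of 45 DNA replication and S phase genes 18 were higher and 2 lower under each label, beside the same shares of all tested genes, with medians of 0.55 for dKO and 0.44 for WT. Among the higher were Rrm2, of ribonucleotide reductase, 1.46 ± 0.20 (adjusted p 0.00171) for dKO and 1.72 ± 0.19 (adjusted p 0.000464) for WT, Cdc45, of the replicative helicase, 1.80 ± 0.24 (adjusted p 0.0016) for dKO, and the thymidine kinase gene Tk1, 1.63 ± 0.19 (adjusted p 0.00061) for WT. The lower ones were Ccne1, for cyclin E1, -1.05 ± 0.27 (adjusted p 0.0357) for dKO and -1.31 ± 0.27 (adjusted p 0.00768) for WT, and Cdt1, which licenses origins, -0.80 ± 0.21 (adjusted p 0.0351) for dKO and -1.0 ± 0.20 (adjusted p 0.00691) for WT. No gene of these 2 lists passed between the genotype labels in either population by edgeR. Medians of labelled dKO against WT in PD1+Tim3+ cells were 0.26 and 0.19, and in PD1+Tim3- cells 0.01 and 0.11, for the mitotic and the S phase list in that order. At an unadjusted p under 0.05 there were 11 of 65 mitotic genes (9 higher, 2 lower) and 9 of 45 S phase genes (9 higher) in PD1+Tim3+ cells, where 12% of all tested genes were. In PD1+Tim3- cells, where 8.27% of all tested genes were, there were 6 mitotic genes (3 higher, 3 lower), a share near that of all genes, and 6 S phase genes (6 higher).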

How the data were processed

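RNA of sorted tumour CD8 T cells was sequenced in 8 libraries, 2 for each combination of genotype label and population, from the labels. The authors deposited raw counts, as whole numbers by gene symbol, in 1 table. The submitters' processing notes name mm10, cutadapt 1.18 and Bowtie2 2.2.5 without their roles. Counting tool, annotation, strand setting and the handling of multi-mapping reads: not given in the sources used here. Antisense and near-identical genes are therefore uncertain. Columns that name PD1 alone were assigned to PD1+Tim3- because the Tim3+ columns are named separately. A last line with no gene name equals the column totals (100% of the summed counts) and was left out.

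The deposited counts were tested with the edgeR 4.0.16 quasi-likelihood F test in R 4.3.3, with TMM factors, the filterByExpr low-count filter (minimum count 10) and 1 fit of 4 group means with 4 residual degrees of freedom. Adjusted p-values are Benjamini-Hochberg over 13073 genes, and 0.05 was the threshold. Standard errors were obtained by dividing the size of the log2 fold change by the root of F. CPM are counts over the TMM-scaled library size. Total counts limit precision, and intervals are exact Poisson at 95%. With 2 mice a group, p-values rest on the spread shared by all groups. DESeq2 1.42.0, limma-voom 3.58.1, other size factors, no filter, fits of 4 libraries, a block by replicate number and fits without each library were tried as alternatives. Replicates differed beyond sampling noise (chi-square divided by genes 3.10 to 16.1), so each counted as 1 sample. The edgeR script was tested on simulated data. Promoter windows came from the RefSeq table of GRCm38.p6, and transcript lengths from GENCODE M21 (longest protein-coding transcript).

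The members and lists were chosen with earlier results of these data known. Every member could be named. Values in every library were given for those that passed in any comparison and for the 3 highest and 3 lowest in each genotype comparison, and other lists are named by their 2 highest and 2 lowest genes. CCAAT was added after the data were seen.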

Additional observations from a re-analysis of the deposited data

How the results depend on the processing

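Counts are of the 40 genes unless stated. Shallow libraries limit low genes, since 18 of the 40 had fewer than 10 counts in replicate 2 of PD1+Tim3- labelled dKO. Without the low-count filter labelled dKO against WT in PD1+Tim3+ cells called 486 over all genes, against 82. The interaction called 331 over all genes, against 0. Of the 40 genes the first gave 5 (Ccna2, Birc5, Cenpe and Mki67 besides Cks2), against 1, and the second gave 2 (Cenpe and Cenpf), against 0. With 1 library fewer the first lay between 0 and 2, the second between 0 and 1, PD1+Tim3+ against PD1+Tim3- between 3 and 27 for dKO and between 7 and 23 for WT, and labelled dKO against WT in PD1+Tim3- cells stayed at 0. Medians then ran from 0.29 to 0.48 for labelled dKO against WT in PD1+Tim3+, 0.05 to 0.15 in PD1+Tim3-, 1.11 to 1.22 for the populations for dKO, 0.66 to 1.01 for WT and 0.15 to 0.31 for the interaction. Other settings gave 21 to 29 for dKO and 16 to 24 for WT. In PD1+Tim3+ cells the genotype difference of Cenpa was 0.12 without WT replicate 2 and 0.17 without dKO replicate 2, at the low end -0.24 without dKO replicate 1, and that of Anln was 0.80 without WT replicate 2 and -0.65 without WT replicate 1. The cause was not tested. CHR words were in 47.1% of windows when only 150 bases before the start were searched. Over all genes the calls lay between 0 and 31 in fits lacking 1 library and between 0 and 232 in other settings for labelled dKO against WT in PD1+Tim3- (6), 6 to 413 and 38 to 486 in PD1+Tim3+ (82), 132 to 1392 and 716 to 1764 for the populations for dKO (1298), 433 to 2773 and 1314 to 2690 for WT (2223), and 0 to 323 and 0 to 331 for the interaction (0). Replicate numbers gave no sign of pairing the samples, with correlations of deviations from -0.18 to 0.02. With 2 libraries a group these correlations cannot show that no samples were paired. A replicate block gave 0 genes for labelled dKO against WT in PD1+Tim3-, 1 in PD1+Tim3+, 21 and 19 for the populations for dKO and WT, and 0 for the interaction, and a block within genotype 24, 20 and 0 for the last 3.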

Other observations

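Of 9 tested CDK inhibitor and quiescence genes 2 (22.2%) passed between the populations under each label, and of 23 tested G1 cyclin, CDK, E2F and DREAM genes 7 (30.4%), where 9.93% of all tested genes passed for dKO and 17% for WT. Cdkn1a, which encodes the CDK inhibitor p21, rose in PD1+Tim3+ cells beside the division genes, for dKO to 226 CPM, against 74.6 CPM in PD1+Tim3- (log2 fold change 1.58 ± 0.13 SE, adjusted p 3.75e-05) and for WT to 161 CPM, against 65.5 CPM in PD1+Tim3- (1.30 ± 0.12, adjusted p 1.53e-04). Btg2, an antiproliferative gene, rose under both labels too, at 0.65 ± 0.12 (adjusted p 0.00905) for dKO and 0.51 ± 0.12 (adjusted p 0.0136) for WT, and the 7 other tested genes did not pass. The median of the 9 was 0.04 for dKO and 0.12 for WT. The lowest were Tob1 at -0.18 (adjusted p 0.332) and Klf2 at -0.16 (adjusted p 0.484) for dKO, and Cdkn1b at -0.10 (adjusted p 0.516) and Foxo1 at -0.05 (adjusted p 0.791) for WT, where the CDK inhibitor gene Cdkn2c was second highest at 0.64 (adjusted p 0.0861). Of the 23 G1 genes 6 rose and 1 fell under each label, with medians of 0.16 for dKO and 0.21 for WT. E2f8 had 1.58 (adjusted p 0.0596) for dKO and 1.12 (adjusted p 0.0872) for WT and did not pass. The cyclin D3 gene Ccnd3 rose at 0.77 ± 0.12 (adjusted p 0.00401) for dKO and, for WT, to 98.8 CPM against 43.7 CPM (adjusted p 1.53e-04), and the E2F gene E2f2 at 0.92 ± 0.18 (adjusted p 0.0111) for dKO and 0.97 ± 0.17 (adjusted p 0.00396) for WT. The 1 gene that fell was E2f7, which encodes a repressor of E2F targets, at -1.36 ± 0.31 (adjusted p 0.0242) for dKO and -1.50 ± 0.30 (adjusted p 0.00753) for WT, and E2f5 was next lowest at -0.61 (adjusted p 0.242) for dKO and -0.64 (adjusted p 0.114) for WT. Between the genotype labels edgeR called 0 genes of these 2 lists in either population, with 4 of the inhibitors and 2 of the G1 genes at an unadjusted p under 0.05 in PD1+Tim3+ cells (12% of all tested genes) and 2 and 3 in PD1+Tim3- cells (8.27% of all tested genes).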
